A study of Mus musculus with 6 samples.

Results

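The 10 genes described here belong to bone morphogenetic protein (BMP) signalling and were followed through 6 RNA sequencing libraries of mouse heart. They are the inhibitors of DNA binding Id1, Id2 and Id3, the ligands Bmp2, Bmp4 and Bmp6, the receptors Bmpr2 and Acvrl1, and the brakes Smad6 and Bambi. They are 10 of the 17524 genes of the table and were chosen by name, with the fold changes of the TFEB overexpression against control comparison already known. Their values in that comparison are therefore a description and carry no test. All 10 passed the filter on low counts.

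BMPs are secreted ligands of the TGF-beta superfamily. They bring together type I and type II receptor kinases at the cell surface, which phosphorylate SMAD1, SMAD5 and SMAD9. These enter the nucleus with SMAD4 and switch on a small set of early targets, among them the Id genes and the inhibitory SMAD6. ID proteins have a helix-loop-helix but no basic region, so they bind E proteins and keep them off DNA. In the heart the pathway is best known from the forming valves and chambers, and in the adult from the endothelium, where the type I receptor ACVRL1 (ALK1) is mainly made.

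The hearts fall into TFEB overexpression (libraries TFEB 34, 41 and 43) and WT (controls 35, 36 and 37), after the numbers in the titles. The line is given as R26-LSL-TFEB [+/+] with Acta2-cre, so that Cre made from the promoter of Acta2, a gene of smooth muscle and myofibroblasts, opens a TFEB cassette at Rosa26. All 6 libraries are labelled with a ligated anterior descending branch of the left coronary artery, and neither age nor time after ligation is given in the sources used here. Whether the controls carried the cassette or Cre is not stated, and nothing says that the libraries are separate animals, so the spread between them may be technical in part. The labels name heart and also primary fibroblasts. Cardiomyocyte markers summed to 40933 to 66195 TPM in the TFEB libraries and to 48151 to 63209 TPM in controls, against 2484 to 8598 and 3311 to 6159 TPM for fibroblast markers, and no marker of either list was at 0. Tfeb itself stood at 45.4, 45.3 and 39.4 CPM in TFEB 34, 41 and 43 and at 34.4, 33.8 and 41.4 CPM in controls 35, 36 and 37 (log2 fold change 0.25, SE 0.12), without passing the edgeR test (adjusted p = 1.00). Depth ran from 12942486 to 14969275 estimated counts per library. Pairs of libraries of a group differed with a chi-square of 43.5 to 149 per degree of freedom, so none was counted as the same library sequenced again. Whether they come from separate hearts cannot be told from this value.

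Id3 was the most abundant of the 10 genes and Bmp2 the least. On the TPM scale, which is set per transcript length, Id3 averaged 152 ± 61.5 TPM over the 6 libraries, above 93.5% of the genes with a mean of at least 1 TPM, and Id1 61.1 ± 9.89 TPM (SD, n = 6). Id2 followed at 28.8 ± 12.7 TPM and Acvrl1 at 27.1 ± 8.56 TPM, then Bmp6 at 19.4 ± 4.96, Bmpr2 at 18.4 ± 1.87, Bambi at 14.4 ± 1.80, Bmp4 at 10.6 ± 3.41, Smad6 at 9.26 ± 3.47 and Bmp2 at 1.22 ± 0.468 TPM. Id3 stood above Id1, and Id1 above Id2, in 6 of 6 libraries. Id2 and Acvrl1 could not be put in order, since Id2 was the higher in only 2 of 6, and neither could Bmp6 and Bmpr2, with Bmp6 higher in 3 of 6. Acvrl1 was above Bmp6, and Bambi above Bmp4, in 5 of 6 libraries. Bmpr2 over Bambi, Bmp4 over Smad6 and Smad6 over Bmp2 each held in 6 of 6.

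**Figure D1:**
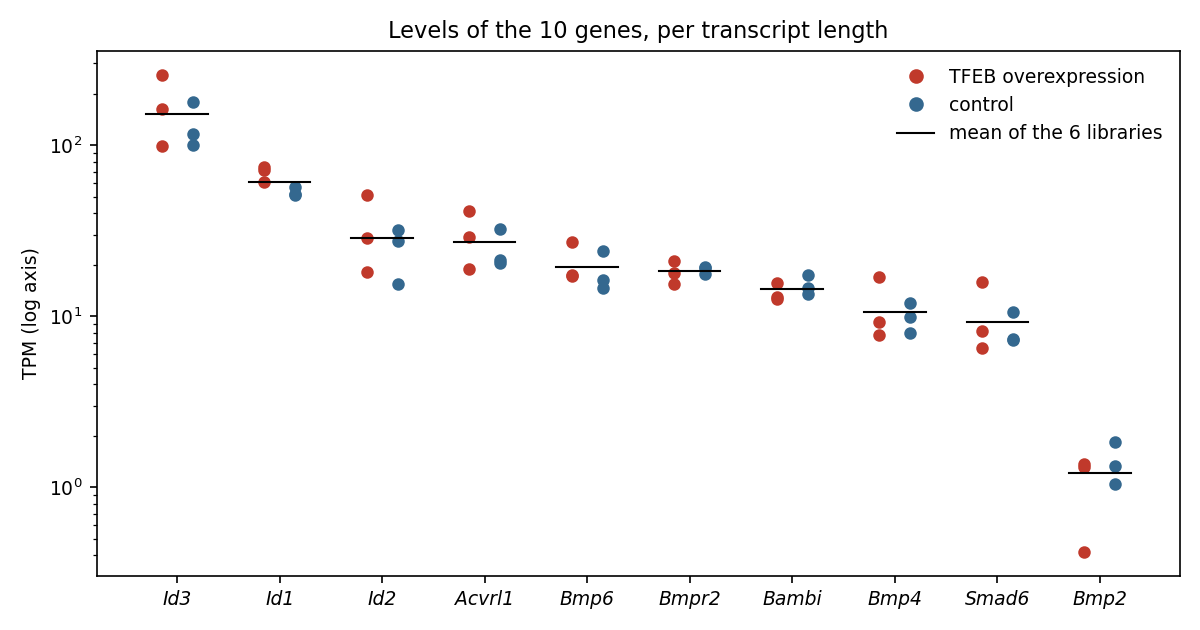
Level of each gene in TPM on a log axis, 1 point per library, with TFEB overexpression left of control and a black line at the mean of the 6 libraries. Id3 is the highest in every library, Bmp2 the lowest, and the libraries of one gene spread most in Id2, Id3, Smad6 and Bmp2.

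Among the Id genes, only Id1 kept the groups apart. Id1 (Entrez 15901, mm10 chromosome 2, 152736251 to 152737410) had 28.0, 29.2 and 27.0 CPM in TFEB 34, 41 and 43 and 21.3, 22.3 and 22.6 CPM in controls 35, 36 and 37. The 3 TFEB libraries lay close together and all above the 3 controls. They averaged 28.1 ± 1.1 CPM, against 22.0 ± 0.673 CPM in controls (SD, n = 3 each), a log2 fold change of 0.35 (SE 0.09) that ran from 0.33 to 0.38 when each library was left out in turn. These rest on 440, 399 and 327 counts in the TFEB libraries and on 317, 317 and 290 in controls. Id1 was the only one of the 10 genes without overlap, 1 of 10, and such a gap upward was seen in 2.24% of all 13565 genes tested and a gap downward in 2.51%. Since the list was drawn up with this gap known, nothing is read from that share. Acta2, the gene whose promoter drives Cre, also lay apart, at 264, 339 and 184 TPM in TFEB 34, 41 and 43 and 125, 127 and 152 TPM in controls 35, 36 and 37. It was named after its values were seen. In TPM, 4.13% of the 12822 genes that passed a filter did not overlap, higher or lower. The smooth muscle and pericyte list of 9 genes that holds Acta2 summed to 826 to 1130 TPM in TFEB libraries and to 694 to 899 TPM in controls, with no member at 0. Every other gene of that list overlapped between the groups, such as Tagln at 35.2 to 201 TPM in TFEB libraries and 58.5 to 92.1 TPM in controls. The part of these genes in the Id1 values was not tested.

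Id2 and Id3 had a fold change as large as that of Id1 but followed single libraries. Id3 (Entrez 15903, chromosome 4, 136143822 to 136145392) had 98.7, 67.1 and 44.4 CPM in TFEB 34, 41 and 43 and 47.9, 70.1 and 44.0 CPM in controls 35, 36 and 37. TFEB 34 stood above all others, control 36 came next, and TFEB 43 was level with control 37. The means were 70.1 ± 27.3 CPM in TFEB libraries and 54.0 ± 14.0 CPM in controls (SD, n = 3 each), with a log2 fold change of 0.38 (SE 0.32). Without TFEB 34 it was 0.05. Id2 (Entrez 15902, chromosome 12, 25093799 to 25096092) had 28.8, 17.5 and 11.98 CPM in TFEB 34, 41 and 43 and 16.8, 18.3 and 10.04 CPM in controls 35, 36 and 37, the same order of the 6 libraries as Id3. Its log2 fold change of 0.37 (SE 0.37) was −0.03 without TFEB 34 and 0.62 without TFEB 43. The highest library held 2.87 times the lowest for Id2 and 2.24 times for Id3, but 1.37 times for Id1. In bulk tissue, more cells of a type that makes a gene and more RNA per cell cannot be told apart.

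**Figure D2:**
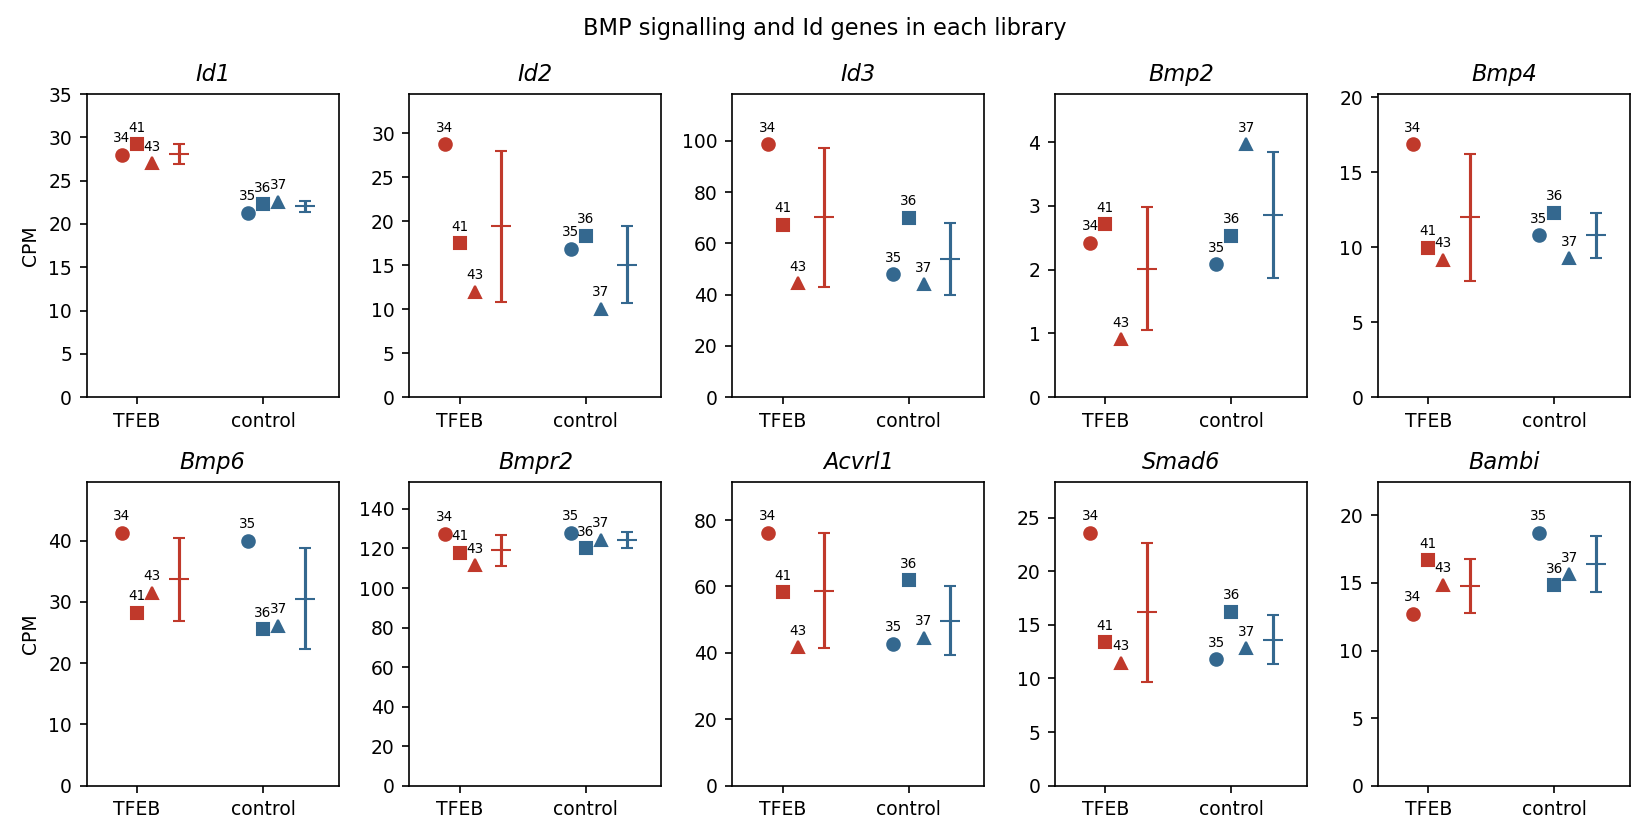
CPM of each gene in every library, with the library number beside its point, TFEB overexpression left and control right in each panel, and the mean ± SD (n = 3) beside the points. Only the Id1 panel has all 3 TFEB libraries (27.0 to 29.2 CPM) above all 3 controls (21.3 to 22.6 CPM); TFEB 34 is the highest point for Id2, Id3, Bmp4, Bmp6, Acvrl1 and Smad6.

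The sequences just before the starts of Id2, Id3, Bmp4 and Bmp6 are shown because these genes were highest in TFEB 34 and had a letter match to a searched motif. The RefSeq promoter table of build GRCm38.p6 (mm10) matched 6 of the 10 genes, and Id1, Bmp2, Acvrl1 and Bambi have no entry there. Capitals mark the motifs, searched on both strands in the 250 bases before each start. They were GGCGCC, the GC-rich element described for SMAD1 and SMAD5, that element followed after a gap of 5 bases by GTCT, the SMAD element CAGAC, the TFEB core CACGTG, and the cyclic AMP element TGACGTCA. In Id2 the capitals are GGCGCC, in Id3 CAGAC on either strand, in Bmp4 CACGTG and in Bmp6 CACGTG and CAGAC. The windows are chr12:25096093-25096342 (minus strand) for Id2, chr4:136143572-136143821 (plus) for Id3, chr14:46390670-46390919 (minus) for Bmp4 and chr13:38345466-38345715 (plus) for Bmp6.
Id2: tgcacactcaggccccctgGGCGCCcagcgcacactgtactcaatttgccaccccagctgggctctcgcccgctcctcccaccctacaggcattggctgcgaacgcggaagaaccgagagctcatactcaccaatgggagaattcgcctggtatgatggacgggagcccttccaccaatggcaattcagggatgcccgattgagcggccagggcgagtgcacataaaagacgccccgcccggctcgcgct
Id3: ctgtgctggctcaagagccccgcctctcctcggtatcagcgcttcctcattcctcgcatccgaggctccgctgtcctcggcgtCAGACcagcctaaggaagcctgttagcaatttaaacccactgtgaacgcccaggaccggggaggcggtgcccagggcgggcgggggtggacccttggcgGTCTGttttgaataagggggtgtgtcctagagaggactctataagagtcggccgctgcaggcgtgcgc
Bmp4: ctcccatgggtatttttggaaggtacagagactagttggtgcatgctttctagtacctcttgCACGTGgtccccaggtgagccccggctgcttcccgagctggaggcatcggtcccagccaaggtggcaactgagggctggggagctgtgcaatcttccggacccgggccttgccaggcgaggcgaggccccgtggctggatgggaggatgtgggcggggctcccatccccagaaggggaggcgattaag
Bmp6: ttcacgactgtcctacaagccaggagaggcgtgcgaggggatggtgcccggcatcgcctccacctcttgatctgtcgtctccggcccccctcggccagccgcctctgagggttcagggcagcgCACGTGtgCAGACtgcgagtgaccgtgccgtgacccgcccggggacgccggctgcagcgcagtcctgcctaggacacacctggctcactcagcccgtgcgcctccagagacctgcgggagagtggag

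GGCGCC was found 231 bases before the start of Id2 and 105 before that of Bmpr2, so in 2 of 6 promoters, and in 9.59% of the 32851 promoters of the table. CAGAC was found 167 and 68 bases before the start of Id3 and 119 before that of Bmp6, 2 of 6, and is held by 42.2% of all promoters. CACGTG lay 188 bases before the start of Bmp4 and 127 before that of Bmp6, 2 of 6, against 6.02% of all. The spaced GGCGCC and GTCT pair (0.07% of all) and TGACGTCA (1.55%) had no match in the 6. None of the 5 motifs matched in the Smad6 window of the promoter table, chr9:64022060-64022309 (minus strand). The end of that window nearest the gene overlaps the gene as placed by the gene table, 63953076 to 64022085. The 6 windows held 62.8% to 68.8% G and C, above the median of 52.4% over all promoters, so the shares over all promoters are not from windows of like base composition. These are matches of letters in a short window and say nothing on binding.

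Of the 3 ligand genes, none kept the groups apart. Bmp4 (Entrez 12159, chromosome 14, 46383525 to 46390669), which acts in chamber and outflow tract formation, had 16.9, 9.96 and 9.17 CPM in TFEB 34, 41 and 43 and 10.8, 12.3 and 9.26 CPM in controls 35, 36 and 37. TFEB 34 was high and the other two TFEB libraries lay among the controls. The log2 fold change of 0.16 (SE 0.27) was −0.17 without TFEB 34. Bmp6 (Entrez 12161, chromosome 13, 38345716 to 38500314), an endothelial ligand known for the control of iron in the liver, had 41.3, 28.2 and 31.5 CPM in TFEB 34, 41 and 43 and 40.0, 25.6 and 26.1 CPM in controls 35, 36 and 37. Control 35 came next to TFEB 34, above the other two TFEB libraries. The log2 fold change was 0.14 (SE 0.23), 0.38 without control 35, where the groups no longer overlapped, and −0.03 without TFEB 34. Without control 35, 9.48% of all genes tested did not overlap. Bmp2 (Entrez 12156, chromosome 2, 133552159 to 133562896), needed for valve formation, was near the lower limit of these data, with 11 to 51 counts per library. It had 2.42, 2.71 and 0.909 CPM in TFEB 34, 41 and 43 and 2.08, 2.53 and 3.97 CPM in controls 35, 36 and 37. Control 37 was the highest and TFEB 43 the lowest, 4.36 times apart, and the log2 fold change was −0.49 (SE 0.46), or −0.15 without TFEB 43.

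The 2 receptor genes behaved differently between libraries. Bmpr2 (Entrez 12168, chromosome 1, 59764279 to 59878081), the type II receptor for BMPs, was the steadiest of the 10 genes, with 128, 118 and 112 CPM in TFEB 34, 41 and 43 and 128, 120 and 124 CPM in controls 35, 36 and 37. The highest library held 1.15 times the lowest, and the log2 fold change was −0.06 (SE 0.09). Without TFEB 34 its groups did not overlap, with TFEB lower and a log2 fold change of −0.11. In that setting 14.3% of all genes tested did not overlap either. Acvrl1 (Entrez 11482, chromosome 15, 101128522 to 101145336), the type I receptor for BMP9 and BMP10 on endothelium, had 76.2, 58.3 and 41.6 CPM in TFEB 34, 41 and 43 and 42.8, 61.9 and 44.6 CPM in controls 35, 36 and 37. As with Id3, TFEB 34 was the highest, control 36 next, and the other libraries of both groups were mixed. The log2 fold change was 0.24 (SE 0.25) and 0.01 without TFEB 34.

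The 2 brakes of the pathway moved in different libraries as well. Smad6 (Entrez 17130, chromosome 9, 63953076 to 64022085), the inhibitory SMAD that BMP signalling itself induces, had 23.6, 13.4 and 11.5 CPM in TFEB 34, 41 and 43 and 11.8, 16.2 and 12.8 CPM in controls 35, 36 and 37. Its 6 libraries stood in the same order as those of Acvrl1, and its log2 fold change of 0.25 (SE 0.29) was −0.13 without TFEB 34. Bambi (Entrez 68010, chromosome 18, 3507011 to 3516404), a receptor without a kinase that dampens signalling, had 12.7, 16.7 and 14.9 CPM in TFEB 34, 41 and 43 and 18.7, 14.8 and 15.6 CPM in controls 35, 36 and 37. It was lowest in TFEB 34, where Smad6 was highest. The log2 fold change was −0.15 (SE 0.15).

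In all, the 10 genes had a median log2 fold change of 0.20, with 7 values above 0, beside a median of 0.00 over all 13565 genes, 6915 of them above 0. The edgeR quasi-likelihood test called 0 of the 10, as it called 0% of all genes, and 164 genes had an unadjusted p under 0.05. DESeq2 called 1 gene in all, which is not among the 10. Of the 7 positive values, those of Id2, Bmp4, Bmp6 and Smad6 were below 0 without TFEB 34.

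The library pattern set Id2, Id3, Bmp4, Acvrl1 and Smad6 apart from Id1. Relative to the mean log2 CPM of the 6 libraries, these 5 genes stood at 0.53 to 0.81 in TFEB 34 and at 0.14 to 0.24 in control 36, and at −0.44 to −0.27 in TFEB 43 and −0.69 to −0.17 in control 37. They were mixed in TFEB 41, at −0.16 to 0.18, and in control 35, at −0.31 to 0.05. The fibroblast list below was above its mean in both of those libraries. Id1 stood at 0.17, 0.23 and 0.12 in TFEB 34, 41 and 43 and at −0.22, −0.16 and −0.14 in controls 35, 36 and 37. The fibroblast markers (10 genes) stood at 0.86, 0.37 and −1.23 in TFEB 34, 41 and 43 and at 0.34, 0.44 and −0.78 in controls 35, 36 and 37 on the same scale, and the macrophage markers (8 genes) at 0.74, 0.17 and −0.65 and at −0.06, 0.33 and −0.54. As means, both lists were highest in TFEB 34 and lowest in TFEB 43 and control 37, as were Id2 and Id3. Not every member followed its mean. In TPM, Gsn, Dcn and Dpt of the fibroblast list and Mrc1 of the macrophage list were highest in control 35. Gsn was lowest in TFEB 34, at 835 TPM, against 1200 TPM in TFEB 43 and 1588 TPM in control 37. The other members of both lists were highest in TFEB 34. Macrophage markers summed to 616 to 2330 TPM in TFEB libraries and 741 to 1582 TPM in controls. The mean of the 12 endothelial markers, of a cell type in which Acvrl1, Smad6 and Bmp6 are known to be made, differed far less. It ran from −0.09 to 0.02 in TFEB libraries and −0.08 to 0.08 in controls. The sums were 2586 to 2834 TPM and 2775 to 3538 TPM, of which Fabp4 alone held 1494 to 1796 TPM and 1789 to 2351 TPM. Members of the endothelial list differed from each other. In TPM, Tie1 and Egfl7 were highest in TFEB 34 and control 36. Kdr was low in TFEB 34 and control 35, and Vwf was highest in control 35. Unlike the fibroblast and macrophage lists, the cardiomyocyte list was lowest in TFEB 34 and highest in TFEB 43 and control 37. It stood at −0.45, 0.06 and 0.36 in TFEB 34, 41 and 43 and −0.08, −0.14 and 0.26 in controls 35, 36 and 37. No gene of these 4 lists was at 0 in a library. The smooth muscle and pericyte list (9 genes) stood at 0.36, 0.29 and −0.23 in TFEB 34, 41 and 43. In controls 35, 36 and 37 it stood at −0.33, −0.0005 and −0.10. The part of cell content in the values of the 10 genes was not tested.

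**Figure D3:**
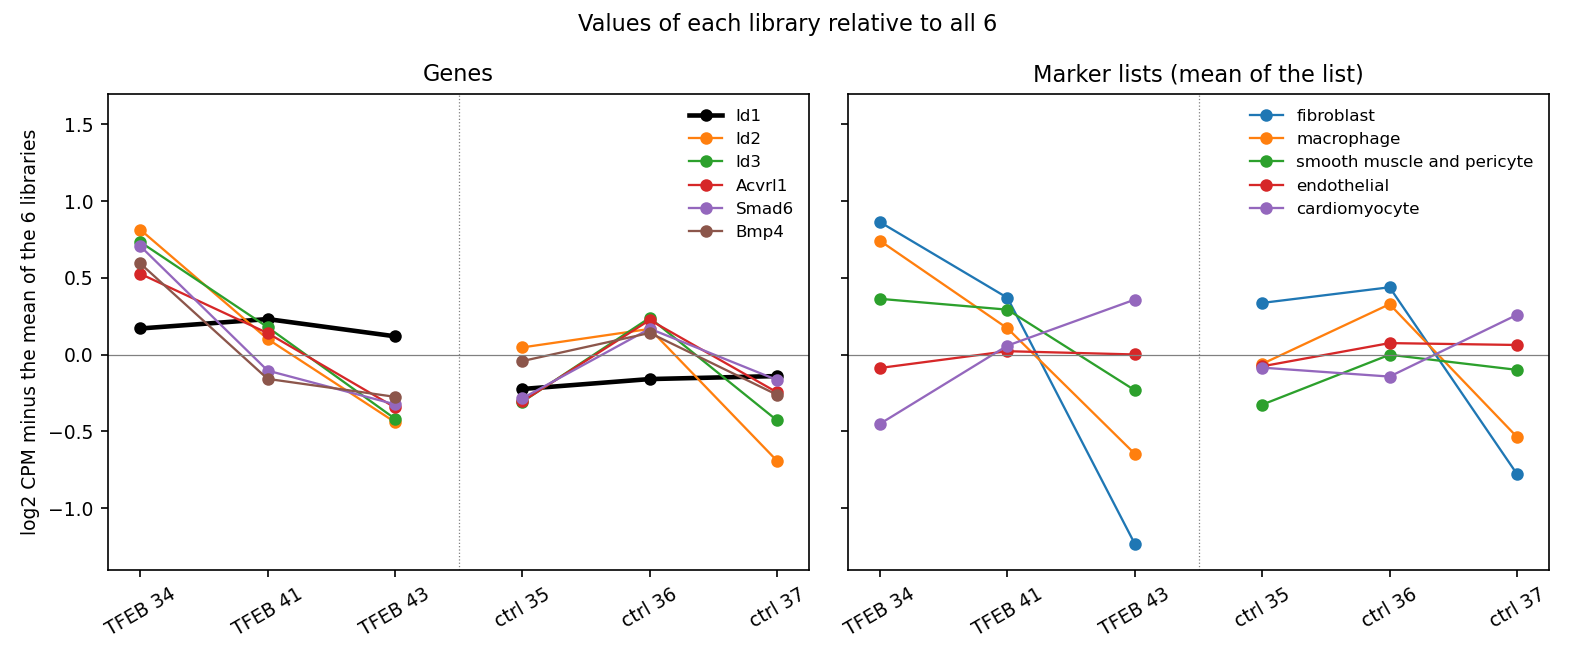
Log2 CPM of each library minus the mean of the 6 libraries, for Id1 and 5 other genes (left) and for the mean of 5 marker lists (right), TFEB libraries left of controls; lines only join the points of a gene or list within a group. Id1 is flat within each group, while Id2, Id3, Acvrl1, Smad6 and Bmp4 peak in TFEB 34 and again in control 36, where the fibroblast and macrophage lists are also high. The fibroblast list is high in TFEB 41 and control 35 too, where the 5 genes are mixed. The smooth muscle and pericyte list is high in TFEB 34 and TFEB 41 and lowest in control 35.

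The likeness of other genes to Id1 and Id3 was measured as Pearson's r of log2 CPM over the 6 libraries, among the 11131 other genes that averaged 5 CPM or more. The libraries share tissue, depth and scaling, so r is given as a description. The 5 genes most like Id1 were Foxk1, a forkhead factor (r = 0.97), the cyclin gene Ccnd3 (0.96), Nudt16l1 (0.96), Klf11, a zinc finger factor (0.96), and Kit, a receptor tyrosine kinase (0.96). For each, the 3 TFEB libraries lay above the 3 controls, as with Kit at 28.4, 24.0 and 19.9 CPM in TFEB 34, 41 and 43 and 8.46, 12.8 and 12.5 CPM in controls 35, 36 and 37. Such a gap follows from the choice, since Id1 itself mainly steps between the groups, and nothing is read from it. No other gene of the 10 was close to Id1: Id3 (r = 0.45) ranked 1297, Acvrl1 (r = 0.43) ranked 1470 and Id2 (r = 0.33) ranked 2156. The genes most like Id3, a search added after its values were seen, were Prelid1, Hpgds, Galnt10, Gng12 and Rhoc (r of 0.997 to 0.999). Acvrl1 ranked 56 by likeness to Id3 (r = 0.99), Smad6 736 (r = 0.93), Id2 803 (r = 0.92) and Bmp4 1089 (r = 0.89), whereas Bambi had r = −0.62.

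Of the 10 genes, 5 are listed with a single transcript model (Id2, Id3, Bmp2, Bmp4 and Bmp6) and 5 with several, 17 models in all. The shares below are the authors' estimates, in TPM, from reads that models have in common. Id1 has 3 models, and NM_010495 held 95.5%, 91.4% and 88.5% of its TPM in TFEB 34, 41 and 43 and 92.7%, 92.4% and 86.5% in controls 35, 36 and 37. The Id1 value of each library thus rests on the same model, and that model alone had 53.7 to 71.2 TPM in TFEB libraries and 44.1 to 52.9 TPM in controls, without overlap. In Bmpr2 the predicted model XM_006495633 held 26.1%, 23.0% and 20.1% in TFEB 34, 41 and 43 and 19.4%, 20.8% and 13.3% in controls 35, 36 and 37, with groups that overlap. In Acvrl1 the model NM_001277258 held 30.1%, 33.04% and 32.8% in TFEB 34, 41 and 43 and 29.7%, 24.5% and 17.9% in controls 35, 36 and 37, each TFEB value above each control, although TFEB 34 and control 35 were nearly level. No other model share of the 5 genes with several models lay apart. The TPM of NM_001277258 itself overlapped, at 6.21 to 12.3 TPM in TFEB libraries and 3.67 to 7.89 TPM in controls. The share of NM_009612 of Acvrl1 was the most variable, at 17.1%, 14.9% and 5.02% in TFEB 34, 41 and 43 and 13.5%, 15.6% and 30.8% in controls 35, 36 and 37. Smad6 was counted at 84.4% to 95.7% under NM_008542, and Bambi at 99.4% or more under the predicted model XM_030250585.

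**Figure D4:**
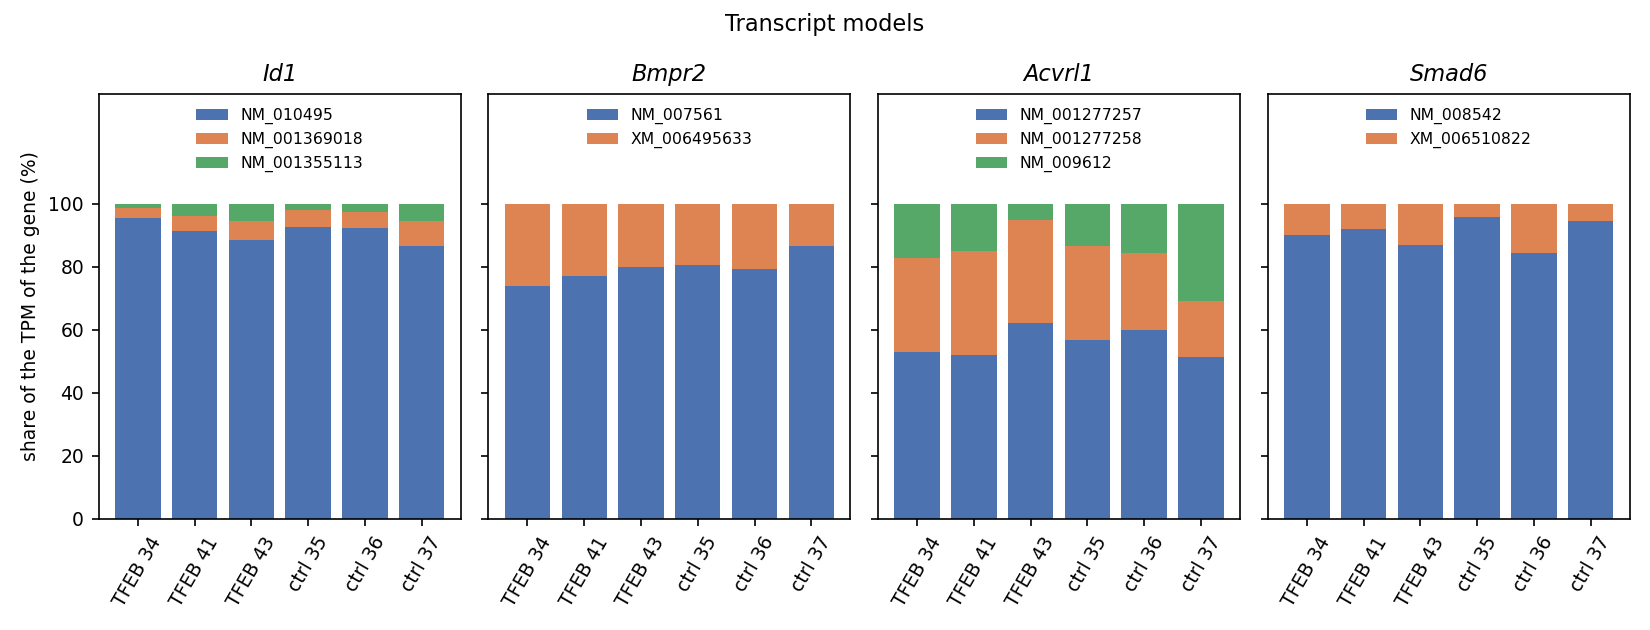
Share of the TPM of Id1, Bmpr2, Acvrl1 and Smad6 held by each RefSeq transcript model, in percent, 1 bar per library with TFEB libraries left of controls. The leading model of Id1 holds 86.5% to 95.5% in every library, and the split of Acvrl1 differs most in TFEB 43 and control 37.

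The other genes of the pathway were counted from a list of 56, of which 40 passed the filter on low counts. Of these 40, 0 were called higher and 0 lower by edgeR, 20 had a value above 0, and the median log2 fold change was −0.00. Up to 3 genes per role are named by the smallest p, and none passed (edgeR adjusted p of 1.00 each).

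Among ligands, Bmp7 stood at 0.69 (log2 fold change, SE 0.40) and Bmp5 at −0.25 (SE 0.27), both with few counts, 40 at most in a library. Gdf6, a BMP family ligand known from joint and eye development, was the most uneven, at 35.3, 6.15 and 0.992 CPM in TFEB 34, 41 and 43 and 3.62, 12.9 and 1.63 CPM in controls 35, 36 and 37. It was highest in TFEB 34 and control 36, the libraries in which Id3 was highest, and its log2 fold change of 1.23 (SE 1.23) was −0.75 without TFEB 34. The 9 measured receptors and coreceptors lay between −0.14 and 0.10, 3 of them above 0, with the type II receptor gene Acvr2a at −0.13 (SE 0.13), the coreceptor gene Rgmb at −0.09 (SE 0.14) and the type I receptor gene Acvr1 at 0.09 (SE 0.18).

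Of 11 measured antagonists and modulators, Chrdl1, a chordin-like binder of BMPs, lay apart between the groups in CPM. That made 1 of the 40 with TFEB lower and 0 with TFEB higher, beside 2.51% and 2.24% of all genes tested. The share of the list was thus near that of all genes. In TPM, Acvr2a (TFEB lower) and Bmp7 (TFEB higher) did not overlap either, by narrow gaps. Chrdl1 had 2.23, 1.61 and 1.49 CPM in TFEB 34, 41 and 43 and 4.70, 4.91 and 2.72 CPM in controls 35, 36 and 37, all 3 TFEB libraries below the controls. These rest on few counts, 35, 22 and 18 in TFEB 34, 41 and 43 and 70, 70 and 35 in controls 35, 36 and 37. In TPM the gap of Chrdl1 was narrow too, with 1.02 in TFEB 34 and 1.07 in control 37. Its log2 fold change stood at −1.20 (SE 0.32), with an adjusted p of 1.00 in edgeR. It ran between −1.43 and −1.06 with each library left out, and was −0.63 on log2(TPM + 1). Sost, which encodes sclerostin, stood at −1.22 (SE 0.88, or −0.17 without control 35), and the follistatin-like gene Fstl3 at 0.63 (SE 0.75, or −0.19 without TFEB 34).

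Inside the cell, all 10 listed genes were measured and lay between −0.28 and 0.15. Smad9 stood at −0.28 (SE 0.23), the ubiquitin ligase gene Smurf1 at 0.10 (SE 0.09) and Fkbp1a, whose product keeps type I receptors quiet, at 0.14 (SE 0.11). Of 4 measured target genes, 1 had a value above 0. Tmem100, a target of ACVRL1 signalling in endothelium, had 15.1, 16.5 and 19.7 CPM in TFEB 34, 41 and 43 and 35.2, 15.9 and 27.5 CPM in controls 35, 36 and 37 (log2 fold change −0.61, SE 0.29). Control 35 was the highest for Tmem100, and the log2 fold change was −0.34 without control 35 and −0.87 without control 36. The 4 endocardial markers summed to 48.1 to 87.4 TPM in TFEB libraries and to 193, 57.7 and 76.0 TPM in controls 35, 36 and 37. Npr3, Plvap and Cytl1 were highest in control 35 but Nfatc1 was not, and the part of these cells in the Tmem100 values was not tested. Id4 stood at −0.60 (SE 0.37), at 1.36 CPM in TFEB libraries and 2.08 CPM in controls on average, and Atoh8 at 0.07 (SE 0.34, or −0.35 without TFEB 34). The E protein genes, whose products ID proteins bind, were all above 0 by small amounts, with Tcf3 at 0.14 (SE 0.13), Tcf12 at 0.03 (SE 0.10) and Tcf4 at 0.02 (SE 0.13).

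**Figure D5:**
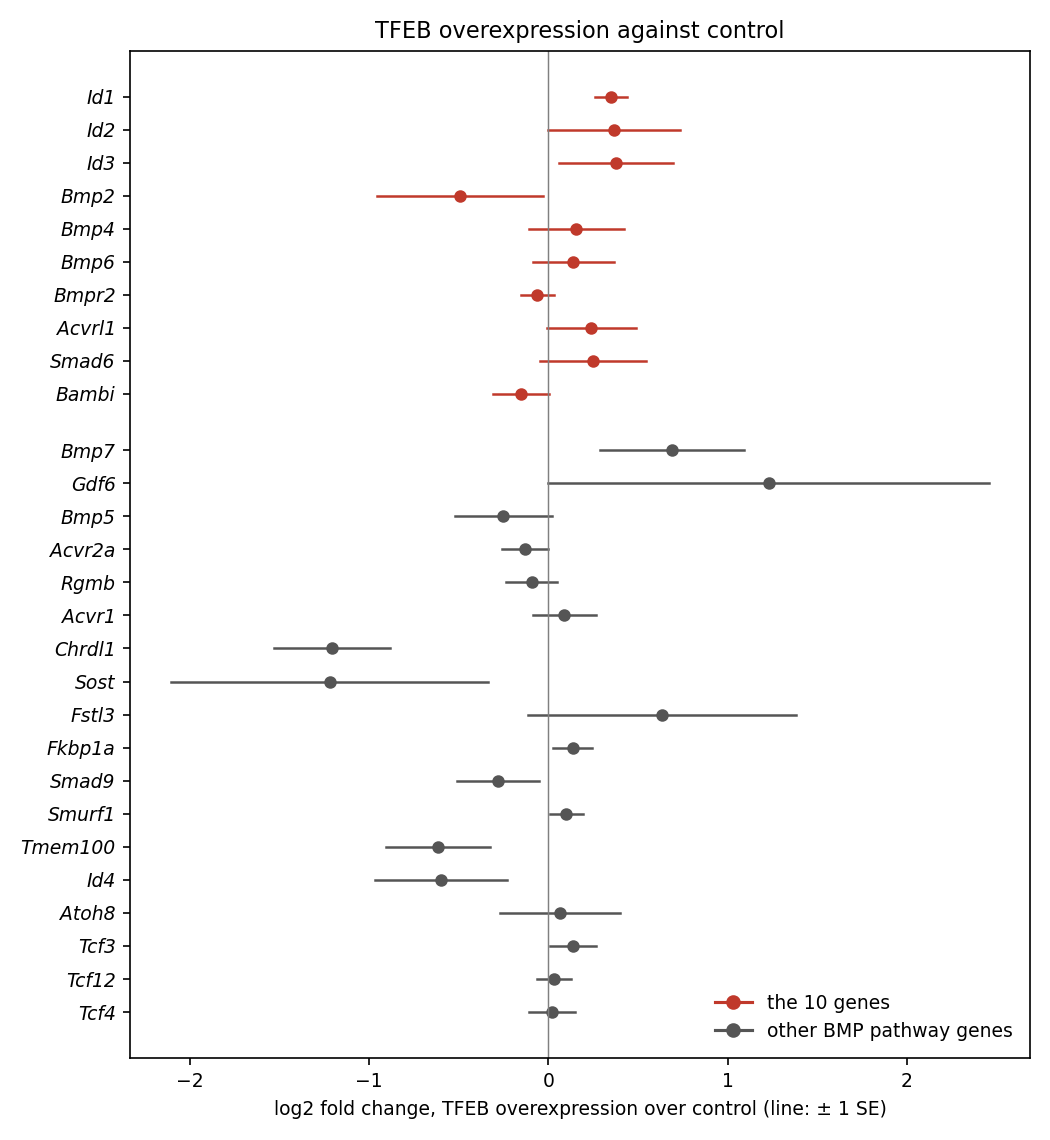
Log2 fold change of TFEB overexpression over control for the 10 genes (red) and the named other pathway genes (grey), with lines of ± 1 SE from the edgeR fit. Id1 (0.35, SE 0.09) has the narrowest line of the values above 0.3, Bmpr2 (−0.06, SE 0.09) lies next to 0, and the lines of Gdf6 and Sost are the widest.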

How the data were processed

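The 6 libraries were grouped by their titles. Per the submitters' processing notes, the software was RSEM 1.3.1, DESeq2 1.4.5, HISAT2 2.1.0 and Bowtie2 2.3.4.3 with the mm10 build; their roles are not given. The authors deposited estimated counts and TPM for each of 62498 RefSeq transcripts, per the file headers, and neither is pooled over libraries. No source used here gives the strand setting, so reads of a gene and of an antisense partner cannot be told apart.

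From these, estimated counts were summed per Entrez gene and rounded, and TPM were summed per gene. Gene symbols and positions were looked up in RefSeq's GRCm38.p6 table, which lacked 117 of 17524 genes (0.510% of counts). The fit across all genes was edgeR 4.0.16 in R 4.3.3 (filterByExpr, TMM, quasi-likelihood test, two-sided) on 13565 genes, with Benjamini-Hochberg adjustment and calls at an adjusted p under 0.05. CPM are scaled by library total and TMM factor. The log2 CPM of the likeness and library patterns used a prior count of 2. Figures used matplotlib 3.10.9. The code was tested on simulated data.

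The 10 genes, the pathway list, the marker lists and the naming rule (all 10 genes, Tfeb, up to 3 pathway genes per role by p, the 5 genes most like Id1) were chosen with earlier results of these data known. Acta2, Bmp10, Hamp and Bmp3, and the genes most like Id3, were named after their values were seen. Marker lists covered cardiomyocyte, fibroblast, endothelial, endocardial, smooth muscle and pericyte, macrophage, lymphatic, adipocyte and mesothelial, and red blood cell genes. Alternatives were RLE and upper-quartile scaling, DESeq2 1.42.0, limma 3.58.1 (voom, and trend on log2 TPM with a pseudocount of 1 or 0.1), 2 other filters, and each library left out.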

Additional observations from a re-analysis of the deposited data

How the results depend on the processing

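The edgeR test called 0 genes higher and 0 lower, over all genes and among the 40 other pathway genes, under both other scalings, both other filters, every left-out library and an adjusted p under 0.1, and limma-voom and limma-trend also called 0. DESeq2 called 1 gene, lower, and 0 of the pathway list. At an unadjusted p under 0.05 there were 164 genes by edgeR, 202 by DESeq2 and 139 by limma-voom. Id1 alone of the 10 genes did not overlap between the groups under every setting with all 6 libraries. With a library left out the count was 1 to 2, and 2 without TFEB 34 (Id1 and Bmpr2) or control 35 (Id1 and Bmp6), where 14.3% and 9.48% of all genes did not overlap. No alternative with all 6 libraries changed the sign of a value of the 10 genes. Id1 ran from 0.35 to 0.36 over those and Bmp2 from −0.53 to −0.27.

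With each library left out, 7 named pathway genes changed sign, 6 of them without TFEB 34. Values ran from −0.75 to 2.42 for Gdf6, −0.064 to 0.24 for Acvr1, −0.19 to 1.12 for Fstl3, −0.35 to 0.27 for Atoh8, −0.0077 to 0.10 for Tcf12, −0.074 to 0.094 for Tcf4 and −0.19 to 0.026 for Rgmb, the last by leaving out control 35. Atoh8 (−0.088) and Tcf4 (−0.074) also changed sign without control 35, and Tcf12 (−0.0054) without control 37. The cause was not tested. With 3 libraries a group and 11 to 51 counts per library, Bmp2 is the gene of the 10 whose depth limits it most. No paired analysis was made because the labels state no pairing between the groups.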

Other observations

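Of the 56 other pathway genes, 16 had too few counts to be tested, and several had most of their counts in 1 or 2 libraries. Bmp10, the atrial ligand of ACVRL1, had 1, 0 and 43 counts in TFEB 34, 41 and 43 and 0, 0 and 35 counts in controls 35, 36 and 37. Hamp, which encodes the iron hormone hepcidin and is a BMP target in liver, had 0, 5 and 5 counts in TFEB 34, 41 and 43 and 52, 0 and 30 counts in controls 35, 36 and 37. Bmp3 had 7, 3 and 9 counts in TFEB 34, 41 and 43 and 103, 9 and 12 counts in controls 35, 36 and 37.

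The other 3 marker lists were measured too. Lymphatic markers summed to 64.7, 65.5 and 60.6 TPM in TFEB 34, 41 and 43 and to 63.4, 71.95 and 49.4 TPM in controls 35, 36 and 37. Adipocyte and mesothelial markers summed to 34.6, 24.9 and 22.9 TPM in TFEB 34, 41 and 43 and to 109, 228 and 9.66 TPM in controls 35, 36 and 37, with Adipoq and Cidec listed at 0 in TFEB 34. Red blood cell markers summed to 17781, 4086 and 7047 TPM in TFEB 34, 41 and 43 and to 3897, 6709 and 18593 TPM in controls 35, 36 and 37. None of the 3 lists had the order of libraries of Id1 or Id3.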
